A study of Homo sapiens with 30 samples.

Results

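RNA-Seq of SH-EP cells expressing S62A MYCN was compared with that of SH-EP cells expressing WT MYCN, both in DMSO. SH-EP is an established human neuroblastoma (NB) cell line of mesenchymal character without MYCN amplification. The comparison takes 6 of the 30 libraries of the series, picked by line and treatment. These are 3 S62A libraries and 3 WT libraries, each from cells given DMSO for 6 hours. The comparison and the gene lists below were chosen with earlier results of these data known. Both lines carry MYCN as a retroviral transgene, so its mRNA does not come from the cell's own MYCN promoter, and each mutant was represented by a single line. What belongs to the line and what to the mutant protein therefore cannot be told apart. In addition, 6 libraries of the same lines given 1 μM CYC065, an inhibitor of CDK9 and CDK2, for 6 hours, and 6 DMSO libraries of the T58A S62A and T58A lines were set beside them. Nothing in the labels says that the 3 libraries of a group came from separate cultures. The p-values therefore measure only the spread between libraries of a group, which may be technical. In the gene-by-gene tests this spread is pooled over all 30 libraries, in 10 groups of line and treatment.

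MYCN is a transcription factor of the MYC family that binds DNA with its partner MAX, often at the E-box CACGTG, and drives genes of ribosome production, metabolism and growth. Its stability is set by a short phosphodegron. Phosphorylation of serine 62 by kinases such as CDK1 primes phosphorylation of threonine 58 by GSK3, and the latter form is bound by the ubiquitin ligase subunit FBXW7. The S62A substitution puts alanine in place of the priming serine, and T58A in place of the threonine. The reference sequence around both positions shows how close they lie. It is codons 54 to 66 of MYCN, in exon 2 of 3, on the plus strand of GRCh37 at chr2:16082346-16082384, with codons 58 and 62 in capitals. The transgenes themselves were not sequenced here.
MYCN codons 54 to 66: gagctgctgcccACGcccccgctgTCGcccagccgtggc

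The S62A line had less MYCN mRNA than the WT line. MYCN (chromosome 2, 16080672 to 16087129 of GRCh37, protein coding) was at 5.08, 6.59, and 5.51 FPKM (fragments per kilobase of transcript, scaled to the reads of the library) in the 3 S62A libraries and at 13.7, 13.3, and 11.7 FPKM in the 3 WT libraries. Every S62A library lay below every WT library. Such groups without overlap, in either direction, were found for 39.8% of the 11575 genes tested below, so a lack of overlap alone sets no gene apart. The means were 5.72 ± 0.778 FPKM and 12.9 ± 1.09 FPKM (SD, n = 3 each), which puts the S62A line at 44.4% of WT. An exact permutation test of these 3 against 3 libraries gave a two-sided p = 0.1, the smallest that 20 arrangements allow. The same order held in CYC065, at 6.64 ± 0.752 FPKM in S62A and 16.4 ± 2.18 FPKM in WT (SD, n = 3 each). The T58A S62A line, which carries the same substitution beside T58A, was at 13.5 ± 3.83 FPKM in DMSO and the T58A line at 8.52 ± 1.29 FPKM (SD, n = 3 each), so the double mutant was not below its own comparator. Parental SH-EP was listed at 0 in all 3 DMSO libraries. Each difference between S62A and WT reported here is thus one between lines that differ in MYCN sequence and in MYCN mRNA level, and their parts cannot be told apart.

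**Figure D1:**
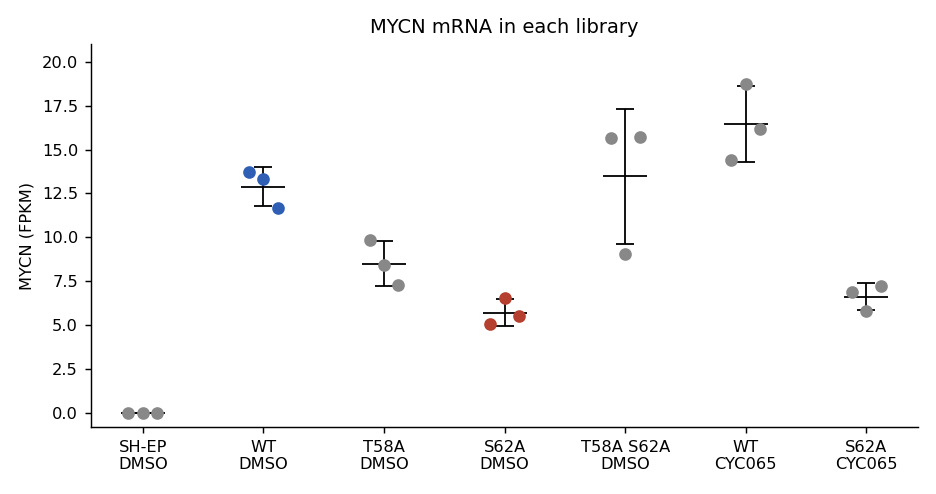
MYCN mRNA in FPKM for each library (points), with the mean and SD of 3 libraries (bars), in the 5 SH-EP lines in DMSO and in the WT and S62A lines in CYC065. The 3 S62A libraries in DMSO, at 5.08 to 6.59 FPKM, lie below the 3 WT libraries, at 11.7 to 13.7 FPKM.

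Other members of the MYC network mostly stayed within the threshold. Testing covered 11575 genes, those whose mean over the 30 libraries reached 1 FPKM. limma was run on log2(FPKM + 0.1), and a gene passed when its p, adjusted by Benjamini-Hochberg, was under 0.05. Of the 11 network genes tested, 2 rose and 1 fell, against 10.1% of all genes that rose and 14.0% that fell. MYCN itself fell by 1.16 on the log2 scale (standard error 0.17, adjusted p = 1.46e-05 by limma). MGA, a large MAX partner that opposes MYC, rose from 5.36 to 7.69 FPKM, a log2 change of 0.52. It missed the threshold without the S62A library numbered 1 (0.47), without the WT library numbered 0 (0.41), and after the correction for transcript length described below (0.28). MYC, the paralog of MYCN, was at 1.85, 1.01, and 1.93 FPKM in S62A and at 1.13, 0.995, and 0.992 FPKM in WT, so the groups overlapped. Its change of 0.53 (adjusted p = 0.0279 by limma) missed the threshold in 4 of 6 fits that left out a library. MAX was at 25.4 FPKM in S62A and 26.8 FPKM in WT (adjusted p = 0.556 by limma). Of 24 genes for kinases, ligases, and other proteins that act on the phosphodegron, 2 rose and 2 fell, shares no higher than those of all genes. The number that fell was 1 without the S62A library numbered 2 or the WT library numbered 0 and 4 without the WT library numbered 2. HUWE1, a ubiquitin ligase, rose by 0.33 and AURKA, a mitotic kinase, by 0.29, and CDK1 fell by 0.30, all on the log2 scale. After the length correction HUWE1 (0.09) and CDK1 (-0.19) no longer passed, and HUWE1 was lower in S62A in CYC065 (-0.16) and lower in T58A S62A than in T58A (-0.33).

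Across all genes the changes were many and mostly small. Of the 11575 genes tested, 1168 (10.1%) were higher and 1624 (14.0%) lower in S62A, and the median absolute log2 change of these was 0.39. At least a 1.5-fold change was seen in 626 of them, 214 higher and 412 lower, and at least a 2-fold change in 47 higher and 181 lower genes. Fitted on the 6 libraries alone, 1430 genes passed, 4.97% of those tested being higher and 7.39% lower. All changes are relative to the RNA sequenced in each library. The synthetic ERCC RNAs, added by cell number, had a median log2 level of 4.48 to 4.85 in the S62A libraries and 3.67 to 4.21 in the WT libraries. Scaling to them shifted the median change of all tested genes from -0.02 to -0.71 and left 21 genes higher among 8677 past the threshold. Every statement below that a gene or list rose is therefore relative to this overall shift, which the deposited values do not include. In bulk libraries, fewer cells of a type and less RNA per cell cannot be told apart.

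**Figure D2:**
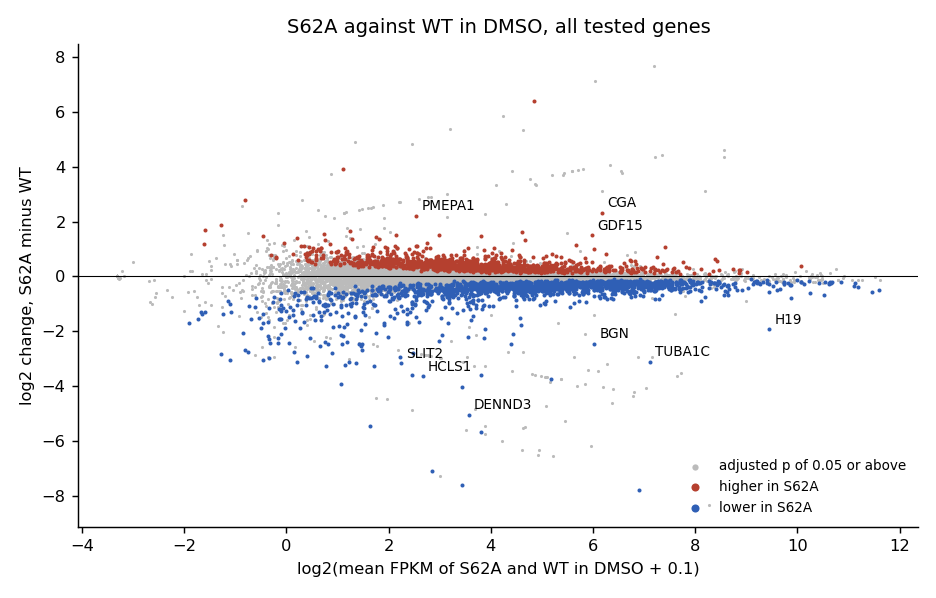
Log2 change (S62A minus WT in DMSO, y axis) against log2 of the mean FPKM + 0.1 (x axis) for the 11575 tested genes, with genes past the threshold in color. More genes fell (1624) than rose (1168), and the falling genes reach larger changes.

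Genes activated by the tumor suppressor p53 were higher in the S62A line. Of 25 p53 target genes, all tested, 17 rose and 0 fell, against 10.1% of all genes that rose, and their median log2 change was 0.45, against -0.02 for all genes. With spike-in scaling, 1 of the 25 was higher and 6 were lower, against 21 higher and 8656 lower among all 11575 genes. GDF15 (chromosome 19, 18485541 to 18499986), a secreted stress factor, was at 91.5, 85.9, and 100 FPKM in S62A and at 38.9, 30.7, and 29.2 FPKM in WT. CDKN1A (chromosome 6, 36644237 to 36655114), the cell cycle inhibitor p21, was at 85.5, 87.1, and 88.5 FPKM in S62A and at 44.9, 43.8, and 41.0 FPKM in WT. For both genes the groups lay far apart compared with the spread within them. The log2 change was 1.5 for GDF15 (standard error 0.10, adjusted p = 6.89e-11 by limma) and 1.01 for CDKN1A (standard error 0.05, adjusted p = 4.02e-13 by limma). DDB2, a DNA damage sensor, was at 21.5, 24.5, and 21.3 FPKM in S62A and at 11.4, 11.2, and 10.2 FPKM in WT. The death receptor FAS was at 17.9, 21.4, and 18.4 FPKM in S62A and at 8.61, 9.96, and 11.2 FPKM in WT. MDM2, a ubiquitin ligase, rose by 0.54. GADD45A and BAX were at changes of 0.08 and -0.16 and did not pass.

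The same list in the other libraries gave these values. In CYC065, 21 of the 25 were higher in S62A than in WT and 0 lower, against 12.6% of all genes higher and 12.6% lower, with a median of 0.47. Between T58A S62A and T58A in DMSO, 6 were higher and 0 lower, against 7.42% of all genes higher and 9.31% lower. GDF15 was at 52.7 ± 8.02 FPKM in T58A S62A and 18.7 ± 0.774 FPKM in T58A, and CDKN1A at 83.2 ± 1.76 and 53.1 ± 1.36 FPKM (SD, n = 3 each). Parental SH-EP, which lacks MYCN mRNA, held GDF15 at 53.9 ± 3.36 FPKM and CDKN1A at 68.7 ± 2.48 FPKM (SD, n = 3 each), between the WT and S62A lines for both.

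Genes of ribosome production fell. Of 48 ribosome biogenesis genes, 26 fell and 1 (UTP20) rose, against 14.0% of all genes that fell, and their median log2 change was -0.20. GAR1, which binds guide RNAs in ribosomal RNA modification, was at 46.2, 36.2, and 50 FPKM in S62A and at 66.3, 69.1, and 67.3 FPKM in WT. RRP12, an export factor of ribosomal subunits, was at 31.3, 29.3, and 28.6 FPKM in S62A and at 45.2, 40.7, and 41.1 FPKM in WT. RRP12 fell by 0.51 on the log2 scale (standard error 0.06, adjusted p = 1.08e-06 by limma). NOP10 and NHP2, which share a complex with GAR1, fell by 0.48 and 0.46. In CYC065, 18 of the 48 were lower and 0 higher in S62A, against 12.6% of all genes in each direction. Between T58A S62A and T58A in DMSO, 10 were higher and 2 lower, against 7.42% and 9.31% of all genes. On the 6 libraries alone 16 of the 48 fell, against 7.39% of all genes. UTP20 did not pass after the length correction (0.06).

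Of the 39 canonical MYC growth targets tested, 16 fell and 1 (MCM7, a replicative helicase subunit) rose, with a median of -0.18, against 10.1% of all genes that rose and 14.0% that fell. On the 6 libraries alone 8 fell, against 7.39% of all genes, and MCM7 did not pass. NOP16, a nucleolar protein, was at 87.4, 94.2, and 99.8 FPKM in S62A and at 126, 129, and 123 FPKM in WT. CDK4, the cyclin D-dependent kinase, was at 112, 124, and 110 FPKM in S62A and at 159, 148, and 134 FPKM in WT. TERT, the catalytic subunit of telomerase, was at 1.18, 1.32, and 1.10 FPKM in S62A and at 1.92, 2.34, and 2.52 FPKM in WT. NCL, an abundant nucleolar protein, fell by 0.13 on the log2 scale. ODC1, which makes polyamines and is a classical MYC target, was at 305 ± 12 FPKM in S62A and 282 ± 11.1 FPKM in WT (SD, n = 3 each; adjusted p = 0.110 by limma). In CYC065, 4 of the 39 were higher and 11 lower, with a median of 0.002, against 12.6% of all genes in each direction. Between T58A S62A and T58A 5 were higher and 2 lower, against 7.42% and 9.31% of all genes.

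The E-box was looked for in promoters, taken as 250 bases before to 50 after the gene start in RefSeq (GRCh38.p14). CACGTG reads the same on both strands. It was in 7.43% of all 27305 promoters and in 10.6% of the 9135 tested genes with a promoter. The share was 13.5% of 1312 promoters of genes that fell and 9.79% of 950 of genes that rose. Of the ribosome biogenesis genes, 15 of 43 promoters held it, and of those that fell 9 of 22. The stretches below are shown because they belong to the ribosome biogenesis genes with an E-box upstream of the start that fell the most. They are 5′ to 3′ on the strand of the gene, with the E-box in capitals. A match is a description of the letters and not a bound site.
NOP10, chr15:34343284-34343323, minus strand: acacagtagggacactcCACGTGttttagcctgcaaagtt
SDAD1, chr4:75991151-75991190, minus strand: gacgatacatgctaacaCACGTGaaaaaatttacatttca
UTP14A, chrX:129905914-129905945, plus strand: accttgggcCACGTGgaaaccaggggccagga
EBNA1BP2, chr1:43172785-43172820, minus strand: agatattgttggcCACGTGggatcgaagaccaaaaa
These E-boxes begin 170, 228, 241, and 237 bases upstream of the start. On the log2 scale, NOP10 fell by 0.48, SDAD1 by 0.32, UTP14A by 0.24, and EBNA1BP2 by 0.21. After the length correction UTP14A (-0.18) and EBNA1BP2 (-0.07) no longer passed.

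Cytosolic ribosomal proteins and respiratory chain subunits had lower values too, but their counts moved with single libraries, with the libraries fitted, and with transcript length. Of 79 ribosomal proteins, 27 fell and 0 rose, with a median of -0.18, against 14.0% of all genes that fell. On the 6 libraries alone 1 fell, against 7.39% of all genes. Without the WT library numbered 0 in the table, 6 fell, and without that numbered 2, 43 fell. RPS25 was at 909, 940, and 1034 FPKM in S62A and at 1405, 1405, and 1544 FPKM in WT. Reads of these genes can be shared with their many processed pseudogenes. In CYC065, 14 of the 79 were higher and 1 lower in S62A, against 12.6% of all genes in each direction. Between T58A S62A and T58A 10 were higher and 1 lower, against 7.42% and 9.31% of all genes. Of 36 nuclear-encoded respiratory chain subunits, 12 fell and 1 rose in DMSO, against 10.1% of all genes that rose and 14.0% that fell. Without the WT library numbered 0, 7 fell, and on the 6 libraries alone 3, against 7.39% of all genes in the latter fit. In CYC065, 6 were higher and 3 lower, against 12.6% of all genes in each direction. SDHD, a membrane anchor of complex II, fell by 0.54 on the log2 scale.

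**Figure D3:**
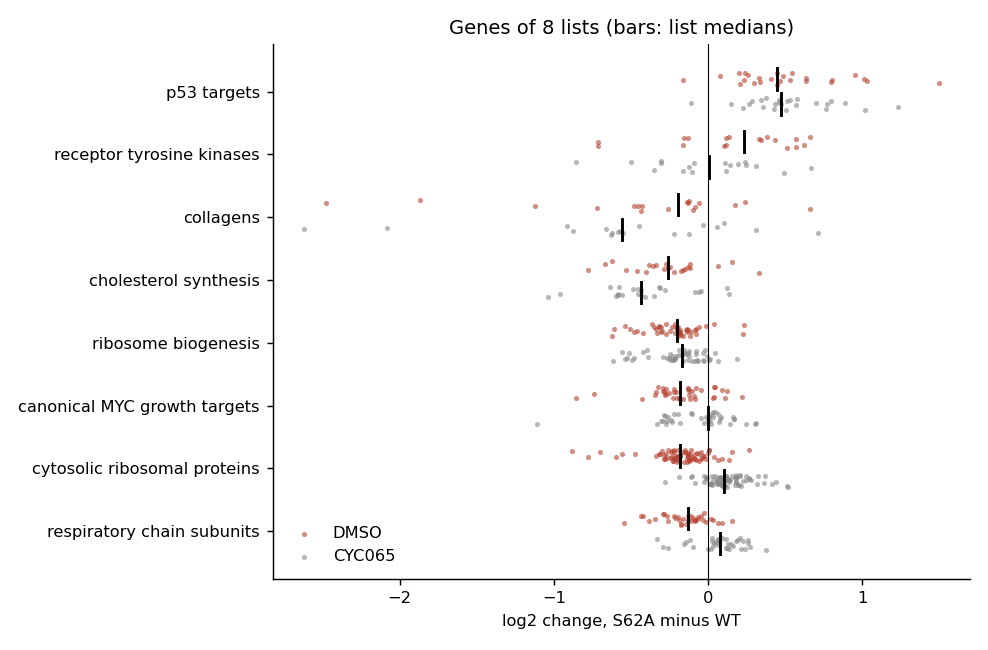
Log2 change, S62A minus WT (x axis), of each tested gene (points) in 8 gene lists, in DMSO (red) and CYC065 (gray), with list medians as bars. The p53 targets lie to the right in both treatments (medians 0.45 and 0.47), whereas the ribosomal proteins lie left of 0 in DMSO (median -0.18) and right of it in CYC065 (median 0.10).

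Changes in DMSO followed transcript length. When genes were put into 5 bins of like size by the length of their longest annotated transcript, the median log2 change was -0.17 in the shortest bin (64 to 2074 bases) and 0.13 in the longest (6161 to 44880 bases). In the shortest bin 1.98% of genes rose and 23.4% fell, and in the longest 24.1% rose and 7.32% fell. In CYC065 the 5 medians lay between 0.02 and 0.05. The difference in level between long and short genes, each relative to its mean over the 30 libraries, was 0.40 to 0.48 in the S62A libraries. In the WT libraries it was 0.18 and 0.25 in those numbered 1 and 2 and -0.06 in that numbered 0. After each library was corrected for its trend over length, 7.77% of the 11345 genes with a length were higher and 13.1% lower. Then 18 of 25 p53 targets rose, 24 of 48 ribosome biogenesis genes and 15 of 39 MYC targets fell, and 12 of 79 ribosomal proteins and 7 of 36 respiratory chain subunits fell. The GC content of transcripts also went with the change in DMSO. Over 5 bins by GC content, the median was 0.05 in the lowest and -0.13 in the highest, where 4.81% of genes rose and 19.3% fell. After the length correction these medians were 0.007 and -0.095.

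**Figure D4:**
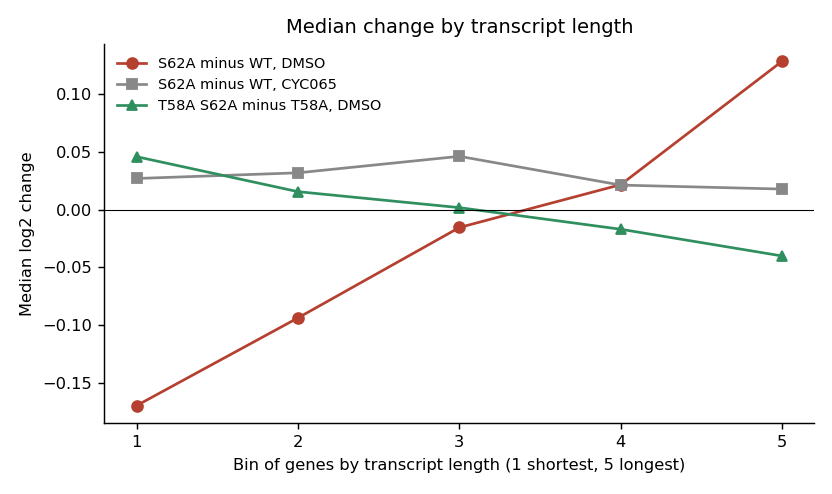
Median log2 change (y axis) of the genes in each of 5 bins by transcript length (x axis, 1 shortest to 5 longest) for 3 comparisons. The line for S62A minus WT in DMSO climbs from -0.17 to 0.13, whereas that for CYC065 stays between 0.02 and 0.05.

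Cholesterol synthesis genes were lower in S62A. Of 23 tested, 12 fell and 0 rose, with a median log2 change of -0.26, against 14.0% of all genes that fell. After the length correction 11 fell, against 13.1% of all genes, and on the 6 libraries alone 10, against 7.39%. Without the WT library numbered 0, 8 fell. FDFT1, squalene synthase, was at 17.5, 16.5, and 16.3 FPKM in S62A and at 28.9, 26.4, and 24.9 FPKM in WT. FDPS, which makes farnesyl diphosphate, was at 86.4, 85.6, and 92.9 FPKM in S62A and at 145, 137, and 127 FPKM in WT. SREBF2, the transcription factor that drives the pathway, fell by 0.38. In CYC065, 17 were lower and 0 higher, against 12.6% of all genes that were lower. Between T58A S62A and T58A, 15 were lower and 0 higher, against 9.31% of all genes.

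Matrix genes moved in both directions. Of 18 collagen genes, 9 fell and 1 (COL4A6) rose, against 14.0% of all genes that fell and 10.1% that rose. COL6A2, a chain of the microfibrillar collagen VI, was at 27.6, 28.4, and 31.4 FPKM in S62A and at 71.9, 60.9, and 58.7 FPKM in WT. Its neighbor COL6A1 fell by 0.72. Of 36 other matrix genes, 12 rose and 11 fell. On the 6 libraries alone 8 rose and 7 fell, against 4.97% and 7.39% of all genes. The proteoglycan BGN (biglycan; chromosome X, 152760438 to 152775004) was at 19.7, 20, and 19.6 FPKM in S62A and at 123, 104, and 102 FPKM in WT, a log2 change of -2.46 (standard error 0.08, adjusted p = 1.25e-16 by limma). SERPINF1, an antiangiogenic secreted serpin, fell from 19.2 ± 0.673 to 4.06 ± 0.333 FPKM (SD, n = 3 each). VCAN (versican, a large proteoglycan) was at 21.9, 20.5, and 19.2 FPKM in S62A and at 6.48, 8, and 7.79 FPKM in WT. POSTN (periostin) was at 229 ± 15.1 FPKM in S62A and 111 ± 15.9 FPKM in WT (SD, n = 3 each). In parental SH-EP, BGN was at 13.9 ± 0.448 FPKM and VCAN at 10.6 ± 0.473 FPKM (SD, n = 3 each), so for BGN the S62A line was nearer to the parent than the WT line was.

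The ligand SLIT2 (chromosome 4, 20253528 to 20622184), which repels growing axons, was at 0.873, 0.902, and 0.795 FPKM in S62A and at 8, 8.48, and 8.85 FPKM in WT. Its change of -3.16 (standard error 0.07, adjusted p = 6.40e-20 by limma) was the largest among 25 axon guidance genes, of which 4 rose and 9 fell, against 10.1% and 14.0% of all genes. On the 6 libraries alone 2 rose, against 4.97% of all genes, and 2 also rose without the S62A library numbered 1. Its receptor gene ROBO1 fell from 13 ± 1.06 to 7.45 ± 0.256 FPKM (SD, n = 3 each). SLIT2 was at 8.74 ± 0.250 FPKM in parental SH-EP, at 18.3 ± 0.695 FPKM in T58A, and at 8.50 ± 0.456 FPKM in T58A S62A (SD, n = 3 each), so the S62A line had the lowest level of the 5 lines.

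The imprinted neighbors H19 and IGF2 on chromosome 11 fell together. H19, a noncoding RNA (2016396 to 2025782), was at 283, 281, and 302 FPKM in S62A and at 1251, 1032, and 1040 FPKM in WT. IGF2, an insulin-like growth factor (2150342 to 2179621), was at 3.99, 4.54, and 3.96 FPKM in S62A and at 15.1, 13.2, and 12.5 FPKM in WT. On the log2 scale H19 fell by 1.93 and IGF2 by 1.68. Parental SH-EP was at 5.65 ± 1.18 FPKM for H19 and 1.02 ± 0.206 FPKM for IGF2 (SD, n = 3 each), below both lines. Of 14 imprinted genes tested, 3 rose and 4 fell, against 10.1% and 14.0% of all genes. On the 6 libraries alone 2 rose and 3 fell, against 4.97% and 7.39% of all genes.

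Several genes of growth factor signaling changed. TGFA (chromosome 2, 70674416 to 70781325), a ligand of EGFR, was at 36.8, 37.3, and 35.9 FPKM in S62A and at 10.9, 12.8, and 12 FPKM in WT. EGFR itself was at 10.3 ± 0.494 FPKM in S62A and 6.98 ± 1.27 FPKM in WT (SD, n = 3 each), a log2 change of 0.57. EGFR missed the threshold after the length correction (0.39), on the 6 libraries alone, and without the WT library numbered 0 (0.42), and in CYC065 its change was -0.09. The list of receptor tyrosine kinases, which also holds the ligand gene VEGFA, had 18 tested genes, of which 8 rose and 2 fell, against 10.1% and 14.0% of all genes. With spike-in scaling, 0 of the 18 were higher and 9 lower, against 21 higher and 8656 lower among all 11575 genes. After the length correction 4 rose, and without the WT library numbered 0, 5 rose. MET, the receptor for hepatocyte growth factor, rose from 44.2 ± 3.8 to 69.7 ± 2.99 FPKM (SD, n = 3 each). Of the feedback regulators of the ERK pathway, DUSP4 rose by 1.5 and SPRY2 fell by 1.07. CGA, the shared alpha subunit of glycoprotein hormones, was at 113, 131, and 117 FPKM in S62A and at 23.1, 25.3, and 23.9 FPKM in WT. PMEPA1, an inhibitor of TGF-beta signaling, was at 9.68, 7.65, and 11.2 FPKM in S62A and at 2.08, 1.92, and 1.83 FPKM in WT.

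Among the genes with the largest decreases were several that the WT line expressed well above the parent. DENND3, an activator of a RAB GTPase, was at 0.545, 0.728, and 0.531 FPKM in S62A and at 25.4, 22.3, and 21 FPKM in WT. It was at 0.771 ± 0.117 FPKM in SH-EP, 0.553 ± 0.0393 FPKM in T58A, and 0.816 ± 0.306 FPKM in T58A S62A (SD, n = 3 each). For this gene it was the WT line that stood apart from the other 4. HCLS1, a cortactin relative of blood cells, was at 0.846 ± 0.118 FPKM in S62A and 11.7 ± 1.81 FPKM in WT, and PTPN7, a phosphatase of blood cells, at 2.06 ± 0.308 and 25.9 ± 2.13 FPKM (SD, n = 3 each). Their parental levels were 1.87 ± 0.408 and 1.18 ± 0.205 FPKM (SD, n = 3 each). TUBA1C, an alpha-tubulin whose reads can be shared with near-identical family members, was at 27.5, 33.5, and 24.8 FPKM in S62A and at 283, 243, and 220 FPKM in WT. ECSCR, an endothelial surface protein, was at 0.151 FPKM in 1 S62A library and listed at 0 in the other two, and at 6.71, 6.52, and 4.68 FPKM in WT. The small nucleolar RNAs SNORA22 and SNORD15B were listed at 0 in all 3 S62A libraries. Such RNAs are shorter than the fragments of a poly(A) library, and both calls were lost in each of the 6 fits that left out a library.

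Identity genes of NB moved in both directions. Of 23 mesenchymal transcription factors tested, 4 rose and 3 fell, and of 6 adrenergic ones 0 rose and 2 fell, against 10.1% of all genes that rose and 14.0% that fell. Of 26 adrenergic marker genes 10 were tested, of which 3 rose and 4 fell. SNAI2, a mesenchymal factor, fell from 12 ± 0.576 to 7.43 ± 0.690 FPKM, and SOX9 rose from 8.38 ± 0.107 to 13.1 ± 1.54 FPKM (SD, n = 3 each). HAND2, an adrenergic factor, was at 48.3, 45.8, and 44.1 FPKM in S62A and at 70.0, 65.6, and 60.0 FPKM in WT. The adrenergic factors PHOX2A and HAND1 were listed at 0 in all 6 libraries. Among the adrenergic markers, SCG2, a neuroendocrine granule protein, rose by 1.16, and MAB21L2, a developmental gene, fell by 2.34.

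The counts of cell cycle genes moved with the libraries and the correction used. Of 35 DNA replication genes 3 rose and 1 fell, against 10.1% and 14.0% of all genes. The 3 that rose became 7 after the length correction and 1 on the 6 libraries alone, without the S62A library numbered 0 or 1, or without the WT library numbered 1. Of 36 mitosis genes 3 rose and 8 fell. The 8 that fell became 2 after the length correction, 3 on the 6 libraries alone, 5 without the S62A library numbered 0, and 4 without the S62A library numbered 1 or the WT library numbered 0. Of all genes, 4.97% rose and 7.39% fell on the 6 libraries alone, and 7.77% and 13.1% after the length correction.

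Most markers of other cell types were near 0. Of 14 blood and endothelial markers, CD68 alone had a mean of at least 1 FPKM, and their summed level was 7.12 to 8.23 FPKM in S62A and 6.78 to 7.09 FPKM in WT. Of 13 Schwann, melanocyte, and glial markers 3 were tested and 1 (TYRP1, a pigment enzyme) rose, against 10.1% of all genes. TYRP1 did not pass on the 6 libraries alone or in 3 of the 6 fits that left out a library, those without the S62A library numbered 1 and the WT libraries numbered 0 and 1. The summed level of these markers was 7.34 to 9.44 FPKM in S62A and 6.12 to 8.44 FPKM in WT. SOX10, CDH1, and CDH5 were listed at 0 in all 6 libraries. Of the 11 epithelial markers 4 were tested, of which 2 rose and 0 fell, against 10.1% and 14.0% of all genes. KRT8 and KRT18, keratins also found outside epithelia, were those that rose, by 0.55 and 0.64. The summed level of the list was 795 to 859 FPKM in S62A and 487 to 631 FPKM in WT. With spike-in scaling, neither keratin was higher, whereas 21 of all 11575 tested genes were.

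Genes in some chromosome regions moved together. In 137 windows of 20 Mb with at least 20 genes of at least 5 FPKM, the median log2 change ranged from -0.45 to 0.25. In 8 windows the median was at or below -0.2 in both DMSO and CYC065, and in 2, both on chromosome 18, at or above 0.2 in both. The lowest was chromosome 11 from 120000001 to 140000000, with medians of -0.45 in DMSO and -0.43 in CYC065 over 29 genes. Chromosome 1 from 140000001 to 160000000 followed, with -0.41 and -0.35 over 131 genes. Of these 93 fell in DMSO, against 14.0% of all tested genes, which include genes under 5 FPKM. The window is named for its low median in these same libraries, so this count is no separate support. The remaining windows that were lower lie on chromosomes 11, 4, 1, and 10. Relative to SH-EP, the 3 S62A libraries were at -0.34 to -0.29 in the lowest window, on chromosome 11, and the WT libraries at 0.07 to 0.19. In the chromosome 1 window from 140000001, the S62A libraries were at -0.57 to -0.54 and the WT libraries at -0.23 to -0.06. The median of T58A S62A minus T58A in DMSO was -0.04 in that chromosome 11 window and -0.29 in that chromosome 1 window. Among the members named above, GAR1, RPS25, FDPS, and SDHD lie in these windows. Without the genes of these windows, 23 of 42 ribosome biogenesis genes and 9 of 20 cholesterol synthesis genes fell, against 12.3% of all genes outside them. Of the p53 targets outside them, 16 of 24 rose, against 10.1% of all tested genes. DNA was not measured in these libraries.

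**Figure D5:**
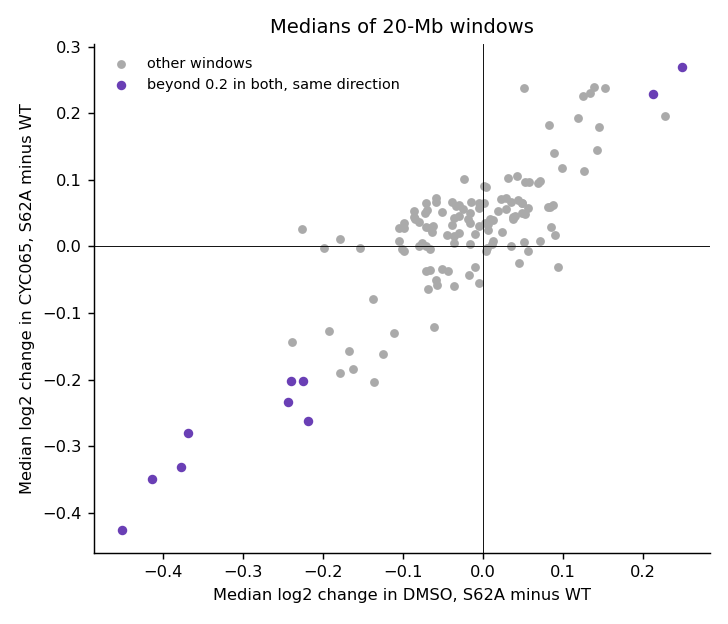
Median log2 change, S62A minus WT, of the genes in each of 137 windows of 20 Mb, in DMSO (x axis) and CYC065 (y axis). The 10 windows beyond 0.2 in the same direction in both treatments are in purple, and 8 of them are lower, down to -0.45 in DMSO.

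Of the genes that rose in DMSO, 563 (48.2%) also rose in the CYC065 pair, where they were 38.7% of all that rose, and 18 fell. Of those that fell in DMSO, 778 (47.9%) also fell in the CYC065 pair, where they were 53.4% of all that fell, and 19 rose. These comparisons share no library but the same pair of lines. In the pair T58A S62A against T58A, 168 (14.4%) of the rising and 337 (20.8%) of the falling genes changed in the same direction, and 111 (9.50%) and 192 (11.8%) in the opposite direction. Of all genes, 7.42% were higher and 9.31% lower in that pair, and 12.6% were higher and 12.6% lower in the CYC065 pair. Those 168 and 337 genes were 19.6% and 31.3% of the genes that rose and fell in that pair. Genes that kept their direction in all 3 comparisons numbered 125 higher and 263 lower. LCP1, an actin bundling protein, was among the former, at 0.908 ± 0.330 FPKM in S62A and 0.0397 ± 0.0194 FPKM in WT, and at 80.0 ± 5.11 FPKM in T58A S62A and 12.6 ± 0.764 FPKM in T58A (SD, n = 3 each). ICAM1, an adhesion receptor, was among the latter, at 0.0590 ± 0.0412 FPKM in S62A and 1.20 ± 0.263 FPKM in WT, and at 0.829 ± 0.134 and 8.38 ± 0.869 FPKM in T58A S62A and T58A (SD, n = 3 each). Both genes were low in the S62A and WT lines, where their changes depend on the pseudocount. The T58A lines raised their mean over the 30 libraries, on which the filter rests.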

How the data were processed

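Per the study's methods, the authors mixed ERCC spike-ins into total RNA in proportion to cell number, kept poly(A) RNA, made strand-specific libraries, aligned reads to hg19 with HISAT2, and ran Cufflinks. The annotation is not given in the sources used here. The deposited FPKM carry no spike-in scaling. They cover 26228 genes and 92 spike-ins, and 0 columns lacked a group. Total reads per library are unknown. The steps of low values gave a relative depth of 0.526 to 1 for the 6 libraries, where 1 is the deepest, and no interval from counting can be given.

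Of these genes, 11575 reached a mean of 1 FPKM. They were fitted in limma 3.58.1 (R 4.3.3) as log2(FPKM + 0.1), in 1 model of 10 groups and 30 libraries (eBayes with trend), and an adjusted p (Benjamini-Hochberg) under 0.05 was called. The pseudocount makes changes of low genes too small. MYCN was also tested by exact permutation. Of all pairs of libraries, 0 were identical, and Pearson's r was 0.931 to 0.949 within the groups and 0.909 to 0.936 between them. The script was tested on simulated data. Spike-in scaling used the 55 spike-ins whose mean reached 1 FPKM. Gene positions are those of the GENCODE annotation lifted to GRCh37, and promoters those of RefSeq on GRCh38.p14.

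The 48 gene lists and the comparison were chosen with earlier results of these data known. Genes named are the MYC network, in each direction the 12 largest changes among genes past the threshold, without overlap, and at 5 FPKM or more in either line, up to 4 per list, and the 5 per direction that changed most in the same direction in DMSO and CYC065 and in DMSO and the T58A pair. Only some of these are printed, and some genes are left out of the text. GADD45A, BAX, ODC1, NCL, MDM2, and the other genes outside this rule were chosen after their values were seen.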

Additional observations from a re-analysis of the deposited data

Results flagged for a closer look

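Each result here was noted because the change of S62A against its comparator differed between treatments or between backgrounds by limma's interaction term, adjusted over all 11575 genes (adjusted p under 0.05). Over all genes, 545 (4.71%) differed between DMSO and CYC065 and 2228 (19.2%) between the WT and T58A backgrounds. Of the 35 genes of the MYC network and of the largest changes, 2 and 16 did. The genes of the largest changes were chosen for their change between S62A and WT in DMSO, which is part of each difference. These counts therefore cannot be read against the shares of all genes.

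MYCN changed by 1.79 less on the log2 scale in the WT background than in the T58A background (difference -1.79, adjusted p = 8.72e-06), being lower in S62A than in WT and higher in T58A S62A than in T58A. The falling genes differed by -5.48 for DENND3, -5.20 for CDC42EP1, -4.59 for HCLS1, -3.30 for PTPN7, -3.33 for HOXB2, -2.06 for SLIT2, and -2.73 for TUBA1C. The rising genes differed by 4.66 for CGA, 2.05 for PMEPA1, 0.67 for TGFA, 1.51 for EPHB6, 0.78 for DUSP4, 1.67 for VCAN, 1.12 for ALDH1A1, and 1.13 for SCG2. CGA was listed at 0 in every T58A S62A library, so its difference depends on the pseudocount.

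Between treatments, the change of HOXB2, a homeobox transcription factor, was lower in DMSO than in CYC065 by -2.78 (adjusted p = 0.0192). That of DUSP4 was -0.67 in DMSO minus CYC065 (adjusted p = 0.0182), since it rose by 1.5 in DMSO and 2.17 in CYC065. Groups of 3 libraries are too small for the check on single outlying libraries.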

How the results depend on the processing

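Scaled to the spike-ins, 8677 genes passed in DMSO (21 higher), 4604 in CYC065 (45 higher), and 317 between T58A S62A and T58A (175 higher), against 2792, 2912, and 1937 as deposited. The share of higher genes in DMSO was 41.8% as deposited and 0.242% with that scaling. Fitted on the 6 libraries compared, 1430 passed in DMSO and 698 between T58A S62A and T58A. With at least a 1.5-fold change also required, 626 passed in DMSO. The cause of these differences was not tested, apart from the fewer libraries of the smaller fit and the narrower rule of the last.

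Leaving out 1 library gave 1919 (without the WT library numbered 0) to 2906 (without that numbered 2) genes in DMSO, and MYCN differences of -7.79 to -6.76 FPKM. Pseudocounts of 1 and 0.01, no filter, a filter at 5 FPKM, median centring, the 15 DMSO libraries alone, the robust fit, and, chosen after seeing the data, corrections for length and GC content and leaving out the shifted windows kept the DMSO count within 1.5 times. The MYCN difference kept its direction in every setting run, but an exact permutation test of 3 against 3 libraries cannot pass 0.05.

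Of 198 named genes, 190 were past the threshold, and 147 of these kept their direction and call in every fit that left out a library. The length correction ended 25 calls and the fit of 6 libraries 59. No paired analysis was possible because the table's columns are numbered 0 to 2 and the labels 1 to 3, so the columns carry no number that matches the labels. With spike-in scaling, the log2 change turned to -0.12 in MYC, -0.65 in MNT, -0.17 in MGA, -0.68 in MLXIP, -0.36 in HUWE1, -0.41 in AURKA, -0.52 in NARS, -0.54 in HK1, -0.045 in SESN2, -0.21 in ATF3, -0.35 in DDIT4, -0.47 in MTAP, -0.43 in ORC1, -0.48 in MCM7, -0.56 in RRM2, -0.37 in ANLN, -0.037 in CDK6, -0.31 in RBL1. It also turned to -0.23 in PMAIP1, -0.063 in SOX9, -0.34 in NOTCH2, -0.0036 in ITGA3, -0.27 in ITGA1, -0.32 in LAMB1, -0.16 in LIMA1, -0.20 in TEAD1, -0.31 in AXL, -0.0047 in SKIL, -0.13 in LTBP1, -0.22 in NOTCH1, -0.14 in EGR1, -0.036 in MET, -0.036 in INSR, -0.12 in EGFR, -0.062 in LIF, -0.23 in ERAP1. Likewise it became -0.41 in CANX, -0.43 in ERAP2, -0.27 in HMGA2, -0.51 in IGF2BP1, -0.35 in SLC7A11, -0.48 in CCT6A, -0.12 in VEGFA, -0.32 in P4HA2, -0.28 in SLC7A2, -0.33 in SLC38A1, -0.30 in AFF4, -0.36 in CCNT2, -0.40 in CDK13, -0.25 in CDH2, -0.42 in TJP1, -0.15 in TYRP1, -0.062 in KRT18, and -0.14 in KRT8. Depth limits genes near 0, since a listed 0 can be a failed estimate.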

Other observations

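Amino acid carriers and related genes, which were not described above, moved in both directions in the S62A line. Of 20 tested, 8 rose and 2 fell, against 10.1% and 14.0% of all genes. With spike-in scaling 1 was higher and 13 lower, against 21 higher and 8656 lower among all 11575 genes. On the 6 libraries alone 3 rose and 0 fell, against 4.97% and 7.39% of all genes. In CYC065, 5 were higher and 3 lower, with a median of 0.003, against 12.6% of all genes in each direction. Between T58A S62A and T58A 1 was higher and 7 were lower, against 7.42% and 9.31% of all genes. SLC1A4, which carries serine and alanine, was at 2.33 FPKM in S62A and 0.862 FPKM in WT, and SLC7A5, which imports large neutral amino acids, fell from 132.5 to 102.4 FPKM. After the length correction 9 rose and 4 fell.

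ALDH1A1, which makes retinoic acid, was at 36.4 ± 2.77 FPKM in S62A and 14.6 ± 0.514 FPKM in WT (SD, n = 3 each). It was at 100.4 FPKM in parental SH-EP. The kinase CDK6 rose from 25.0 ± 1.42 to 39.4 ± 1.81 FPKM (SD, n = 3 each), whereas CDK4 fell. In CYC065, CDK6 was at 48.1 ± 2.23 FPKM in S62A and 47.3 ± 3.19 FPKM in WT (SD, n = 3 each).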
